A study of Mus musculus with 32 samples.

Results

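The contractile genes of smooth muscle and of myofibroblasts were followed across all 8 groups of a study of newborn mouse lung. They were chosen by name: Acta2, Tagln, Myh11, Cnn1, Actg2, Des, Lmod1, Smtn, Mylk and Myocd, which are 10 of the 35715 gene names on the array. All probes carrying one of these names were taken, 12 of 55681, with 2 each for Mylk and Smtn and 1 for each of the other 8 genes. Every one of the 12 probes was well above background on all 32 arrays, so no member was lost to the filter on dim probes.

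RNA of the whole perfused lung was hybridised to one-colour arrays, 1 mouse per array and 4 mice per group. The mice were wild-type C57Bl/6J pups of both sexes, kept from soon after birth in 21% O2 (normoxia) or 85% O2 (hyperoxia, which models bronchopulmonary dysplasia, the arrested formation of alveoli in preterm infants). All pups received a locked nucleic acid antimiR, either a scrambled sequence (SCR) or antimiR-34a (A34a), and none was left uninjected. Lungs were taken at post-natal day (P)5 or P14. The 8 groups therefore join 2 ages, 2 oxygen levels and 2 antimiRs, and the comparisons ask how hyperoxia, age and the antimiR relate to lung gene expression.

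Smooth muscle contracts when myosin light-chain kinase phosphorylates the regulatory light chain and myosin then pulls on actin filaments. In the lung these proteins are made by the smooth muscle of airways and vessels and, during septation, by alveolar myofibroblasts, which lay down elastin at the tips of the growing septa. Serum response factor (SRF), with the coactivator myocardin or with myocardin-related factors, binds a sequence called the CArG box in many of these genes. AntimiR-34a pairs with the microRNA miR-34a-5p and blocks it. The microRNA is shown because it is what the treatment binds, with the seed (bases 2 to 8) in capitals; it lies at chr4:150068473-150068494 on the plus strand of GRCm38.p6 and has 22 bases in RefSeq.
mmu-miR-34a-5p: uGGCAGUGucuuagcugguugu

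Values are log2 signals relative to the 75th percentile of all probes on the same array, and an effect is a difference of 2 group means on that scale. Adjusted P values come from limma with Benjamini-Hochberg adjustment over all probes tested, and a gene was called at 0.05. The fits held 35981 probes for P5, 38452 for P14 and 39159 for comparisons between the ages. The brightest probe of a gene stands for it. Each probe has its own brightness, so levels are compared between groups and never between genes. In whole-lung RNA, fewer contractile cells and less RNA per cell cannot be told apart.

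Several features of the arrays bear on what follows. Each of the 4 slides held 8 arrays, the SCR and A34a groups of 1 age and 1 oxygen level, so an oxygen or age effect and the slide cannot be told apart. SCR and A34a mice shared a slide but lay in different array rows, so antimiR and row cannot be told apart. All 8 markers of lung epithelium were above background on all arrays, as were all 8 of heart muscle. Cardiac and skeletal muscle RNA varied widely between mice: the summed linear level of 8 skeletal muscle markers was 4.13, 2.39, 2.46 and 141 times the 75th percentile in P5 21% O2 SCR mice 1 to 4, so mouse 4 stood far apart. The 8 heart markers summed to 229, 71.1, 51.4 and 206 in those mice and to 20.8 to 62.8 in the P5 85% O2 SCR mice. Counts at P5 of the members and of muscle, contractile, regulator, myofibroblast and pericyte genes in SCR mice are given with and without mouse 4. In 21% O2 at P14, 1 mouse of each group had values like those of the other group. The 8 epithelial markers summed to 1359, 1326, 1309 and 1606 in SCR mice 1 to 4 and to 1268, 1630, 1581 and 1585 in A34a mice 1 to 4, and the 10 SRF regulators described further on summed to 558, 531, 523 and 784 and to 535, 759, 742 and 762. The 75th percentile of the array was 10.12, 10.15, 10.17 and 9.34 in SCR and 10.20, 9.61, 9.64 and 9.56 in A34a mice on the log2 scale. SCR mouse 4 thus lay with A34a mice 2 to 4 and A34a mouse 1 with SCR mice 1 to 3 in all 3 measures. The groups were kept as labelled, and the comparisons that use them are also given without these 2 mice. The balance of calls over all probes moved with the scaling: 39.9% of the probes called for oxygen in SCR mice at P5 were higher (52.8% with quantile normalization), 46.7% at P14 (63.5% with normexp background correction), and for A34a mice 36.8% (49.1%) and 42.4% (56%, both with quantile normalization). For age in 85% O2 the share was 61.6% (47.9% with quantile normalization).

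At P5, contractile genes were lower in hyperoxia. In SCR-treated lungs 8 of the 10 genes were lower in 85% O2 and 0 were higher, where 26.4% of all probes were lower and 17.5% were higher. The median effect over the 10 genes was -0.42, beside -0.07 over all probes, and all 10 effects were negative. The groups did not overlap for 6 members, Acta2, Actg2, Lmod1, Myh11, Myocd and Smtn, nor for 39% of all probes.

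Acta2, which encodes the smooth muscle α-actin that also marks myofibroblasts, was at 6.14, 5.92, 6.02 and 6.27 in the 4 mice in 21% O2 and at 5.76, 5.55, 5.69 and 5.67 in the 4 mice in 85% O2. Every hyperoxic mouse lay below every normoxic one. The effect was -0.42 ± 0.08 (SE, n = 4 and 4, limma adjusted P = 0.000843), a 1.34-fold lower signal. The Acta2 probe lies at chr19:34316060-34316119 on the minus strand in mm9.

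Actg2 encodes the γ-actin of smooth muscle. It was at 4.76, 4.46, 4.57 and 5.01 in 21% O2 and at 4.23, 4.11, 4.22 and 4.09 in 85% O2, without overlap and with mouse 4 the highest. It fell by 0.54 ± 0.12 (SE, limma adjusted P = 0.0029).

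Myh11, the smooth muscle myosin heavy chain, was at 1.98, 1.91, 1.94 and 2.16 in 21% O2 and at 1.66, 1.53, 1.58 and 1.63 in 85% O2. The groups did not overlap, the difference was -0.40 ± 0.07 (SE, limma adjusted P = 0.00068), and the spread within each group was at most 0.11 (SD, n = 4). Myocd, which encodes the coactivator myocardin, was at -0.03, -0.21, -0.22 and -0.09 in 21% O2 and at -0.57, -0.80, -0.71 and -0.82 in 85% O2. Its groups were well apart, at -0.59 ± 0.07 (SE), and its adjusted P by limma was the lowest of the 10 genes, 2.20e-05. Myocardin is also made in the heart.

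Lmod1 encodes leiomodin 1, which nucleates actin filaments in smooth muscle. Its probe was dim, at -4.24, -4.72, -4.52 and -4.05 in 21% O2 and at -5.05, -5.36, -5.92 and -5.14 in 85% O2. The groups did not overlap and the effect was -0.98 ± 0.25 (SE, limma adjusted P = 0.00525), the largest of the 10. Its size depended on the processing: it was -0.26 with normexp background correction and -0.65 with quantile normalization, and the gene was called in both.

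The other members showed smaller or less even effects. Mylk, the gene of myosin light-chain kinase, fell by 0.24 (adjusted P = 0.0114) and Smtn, the gene of the actin-binding smoothelin, by 0.28 (adjusted P = 0.0172), both by limma. The Mylk call held in 5 of 9 alternatives and was lost with normexp background correction (-0.16, adjusted P = 0.094), in the fit of the 2 groups alone, with averaged probes and under the methods' t-test. The second probe of Smtn was called lower as well (-0.33, adjusted P = 0.00452), whereas the second probe of Mylk was not called (-0.20, adjusted P = 0.357). Cnn1 encodes calponin, an actin-binding inhibitor of the myosin ATPase, and was at 4.61, 3.77, 3.76 and 4.81 in 21% O2 and at 3.85, 3.66, 3.45 and 3.58 in 85% O2. Mice 1 and 4 in 21% O2 were high and mice 2 and 3 overlapped with hyperoxia, and the call at -0.60 (adjusted P = 0.0410) held in 3 of 8 fits that each left out 1 mouse. Des, the intermediate filament desmin of all muscle, was at -0.41 (adjusted P = 0.0917), and Tagln, the actin-bundling protein SM22α, was at -0.16 (adjusted P = 0.105). Neither of these was called.

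Mouse 4 of the P5 21% O2 SCR group, with the high skeletal muscle signal, had the highest value in its group for 8 of the 10 genes. Without it 6 genes were called lower: Acta2, Actg2, Lmod1, Myh11, Mylk and Myocd. Cnn1 (adjusted P = 0.131) and Smtn (adjusted P = 0.0562) were then not called. Of the 8 heart markers 6, and of the 8 skeletal muscle markers 4, were also lower in hyperoxia at P5, with medians of -1.47 and -2.11, and their part in the contractile effects was not tested. Without mouse 4 the counts were 4 and 4 and the medians -1.15 and -0.89. Over all alternatives 1 to 7 heart and 0 to 5 skeletal muscle markers were called lower, with 0 skeletal muscle markers in the fit of the 2 groups alone and under the methods' t-test and 1 without mouse 1 of P5 85% O2 SCR. Under the methods' t-test with the same adjustment, 4 members were called: Acta2, Myh11, Lmod1 and Myocd. In A34a mice at P5, 1 of 8 heart and 0 of 8 skeletal muscle markers were lower in hyperoxia, with medians of -0.75 and -0.47.

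**Figure D1:**
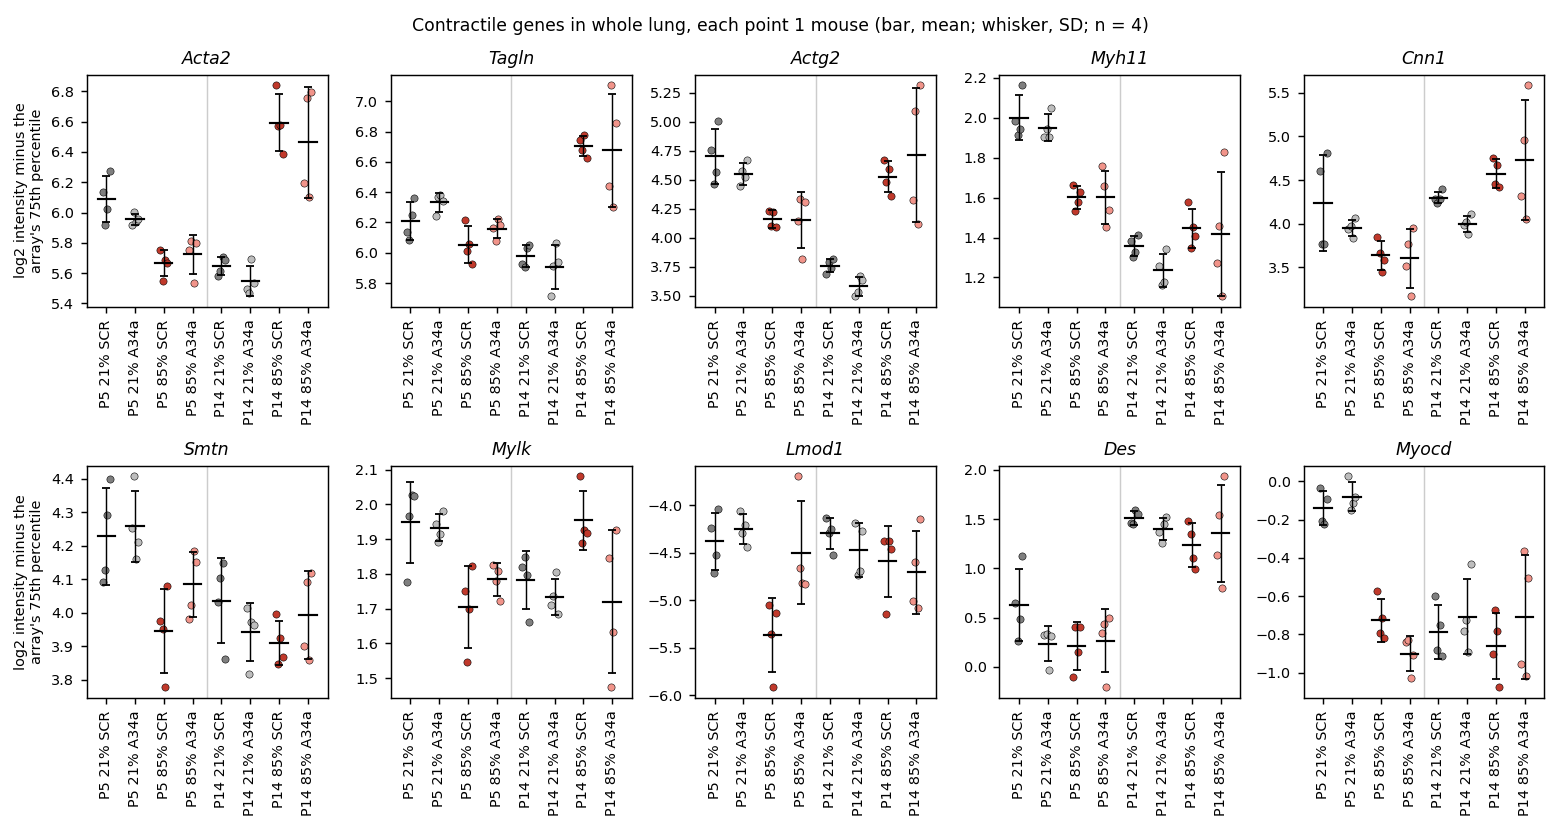
Signal of the 10 contractile genes in each of the 32 mice, 1 panel per gene, as log2 relative to the array's 75th percentile on the y axis and the 8 groups on the x axis. Points are mice, bars the group mean and whiskers the SD (n = 4). Acta2, Actg2 and Tagln are lowest at P14 in 21% O2 and high at P14 in 85% O2, while Myocd and Myh11 are highest at P5 in 21% O2.

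At P14 the picture differed. In SCR-treated lungs 3 of 10 genes were higher in 85% O2, namely Acta2, Actg2 and Tagln, and 0 were lower, where 28.4% of all probes were higher and 32.4% were lower. The share of members called higher, 3 of 10, was thus close to that over all probes. The median effect of the 10 genes was 0.13, beside -0.06 over all probes, and 6 effects were positive and 4 negative.

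Acta2 at P14 was at 5.58, 5.62, 5.71 and 5.69 in 21% O2 and at 6.84, 6.57, 6.58 and 6.38 in 85% O2. The lowest hyperoxic mouse was well above the highest normoxic one, and the effect of 0.94 ± 0.15 (SE, limma adjusted P = 9.07e-05) was a 1.92-fold higher signal. Actg2 was at 3.69, 3.79, 3.74 and 3.82 in 21% O2 and at 4.67, 4.48, 4.60 and 4.36 in 85% O2, which gave 0.77 ± 0.20 (SE, limma adjusted P = 0.00497). Tagln was at 5.93, 5.91, 6.03 and 6.05 in 21% O2 and at 6.74, 6.68, 6.78 and 6.63 in 85% O2, which gave 0.73 ± 0.14 (SE, limma adjusted P = 0.000557). None of the 3 genes overlapped between oxygen levels (56.7% of all probes did not), and all 3 calls held in each of the 8 fits that left out 1 mouse. They also held without both mice of the 21% O2 groups that lay with the other group. The effects were smaller in some of the 9 alternatives that kept all mice. They ran from 0.72 to 0.94 for Acta2, 0.56 to 0.77 for Actg2 and 0.50 to 0.73 for Tagln, so the values given are the highest.

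The remaining 7 members were not called at P14, although 3 of them were in some alternatives, as given with their values. Myh11 was at 1.38, 1.30, 1.33 and 1.41 in 21% O2 and at 1.58, 1.35, 1.45 and 1.41 in 85% O2, an effect of 0.09 (95% interval -0.17 to 0.35, adjusted P = 0.533), with overlapping groups. Myocd was at -0.60, -0.88, -0.75 and -0.91 in 21% O2 and at -0.91, -0.67, -0.78 and -1.08 in 85% O2, an effect of -0.07 (95% interval -0.40 to 0.25, adjusted P = 0.698), also with overlap.

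Cnn1 (0.28, adjusted P = 0.331), Mylk (0.17, adjusted P = 0.116), Smtn (-0.13, adjusted P = 0.197), Des (-0.28, adjusted P = 0.21) and Lmod1 (-0.29, adjusted P = 0.267) completed the set, all by limma. The sign of the Lmod1 effect depended on the processing, with -0.29 to 0.15 over 9 alternatives. Cnn1 and Mylk were higher in every hyperoxic mouse than in any normoxic mouse although neither was called. With Acta2, Actg2 and Tagln, 5 of the 10 members had groups apart, beside 56.7% of all probes. Smtn was called lower with quantile normalization (-0.31, adjusted P = 0.00344), with the authors' values (-0.31, adjusted P = 0.00317) and with its probes averaged (-0.21, adjusted P = 0.0425), and its second probe was called lower (-0.29, adjusted P = 0.0174). Cnn1 was called in the fit of the 2 groups alone (adjusted P = 0.0343), but its effect was 0.06 with quantile normalization, and Mylk was called with its probes averaged. Of 8 heart markers 4, and of 8 skeletal muscle markers 6, were lower in hyperoxia at P14, with medians of -1.33 and -1.70. Their part in the contractile effects was not tested. The heart count rested on single mice: it was 0 without any 1 of mice 1 and 2 in 85% O2 and mice 1 and 3 in 21% O2, 2 without mouse 3 in 85% O2, and 8 in the fit of the 2 groups alone. The heart median stayed between -1.55 and -1.10, and 4 to 7 skeletal muscle markers were called lower in all alternatives, with a median of -0.68 under normexp background correction.

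The difference between the ages was itself tested, as the oxygen effect at P14 minus that at P5 in SCR mice. It was called for 7 of 10 genes, all higher, where 23% of all probes were called higher and 17.9% lower. The median over the 10 genes was 0.60, beside 0.04 over all probes, and the difference was positive for all 10. Acta2 had the largest, 1.37 ± 0.17 (SE, limma adjusted P = 1.09e-06), followed by Actg2 with 1.30 ± 0.24 (SE, limma adjusted P = 0.000153). Tagln followed with 0.88 (adjusted P = 0.000117), Cnn1 with 0.87 (adjusted P = 0.0398), Myocd with 0.52 (adjusted P = 0.0165), Myh11 with 0.49 (adjusted P = 0.00691) and Mylk with 0.42 (adjusted P = 0.00429).

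Lmod1 (0.69, adjusted P = 0.108), Smtn (0.16, adjusted P = 0.301) and Des (0.13, adjusted P = 0.727) were not called. For Acta2 and Actg2 the sign of the oxygen effect turned between the ages, with a call at both. For Myh11 and Myocd a call at P5 stood beside none at P14, and for Tagln the reverse held. Mylk was called at P5 and not at P14, but with its probes averaged it was called at P14 and not at P5. The call of Cnn1 was not stable: it held in 6 of the 16 fits that left out 1 mouse, with an adjusted P of up to 0.105, in 4 of 8 alternatives, and not without both mice of P14 in 21% O2 that lay with the other group (adjusted P = 0.0515). Without mouse 4 of the P5 21% O2 SCR group 6 genes were called, Cnn1 being lost.

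**Figure D2:**
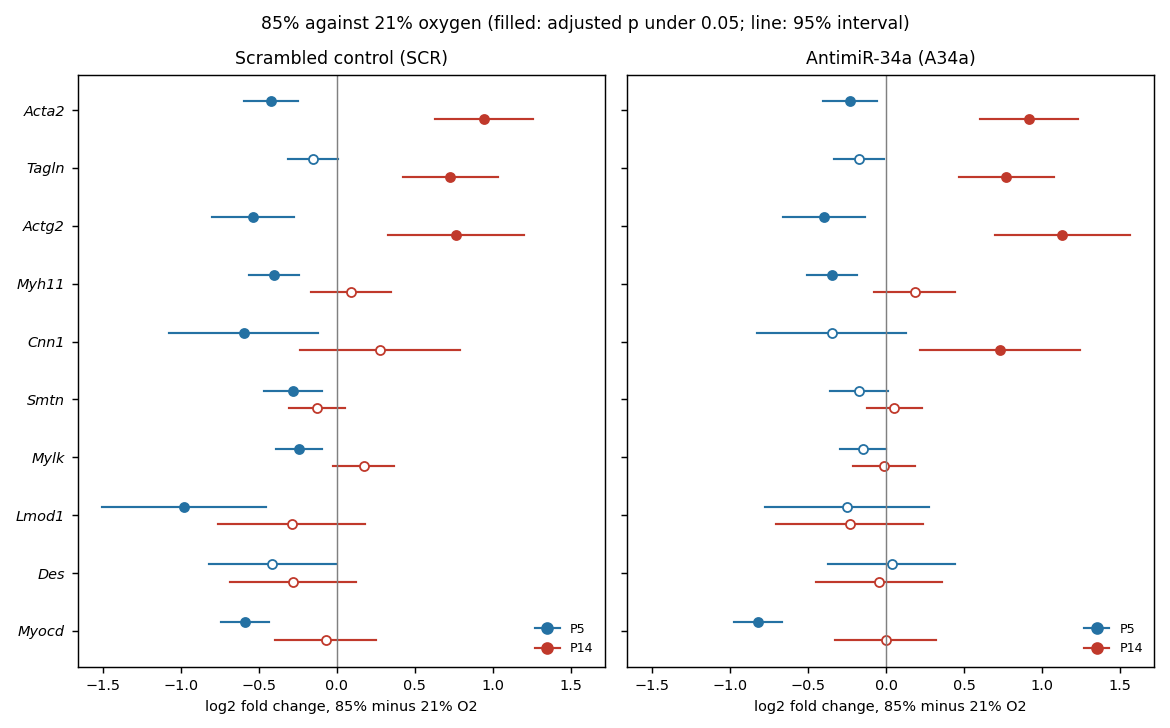
Effect of 85% against 21% O2 on each contractile gene (x axis, difference of group means on the log2 scale), in SCR mice and in A34a mice, at P5 (blue) and P14 (red). Points are estimates, lines 95% intervals and filled points adjusted P below 0.05; in SCR mice Acta2 and Actg2 are called on the negative side at P5 and on the positive side at P14.

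The mice treated with antimiR-34a form separate groups of their own, with their own normoxic controls. At P5, 4 of 10 members were lower in 85% O2 (29.5% of all probes were) and 0 were higher: Acta2 (-0.23, adjusted P = 0.0309), Actg2 (-0.40, adjusted P = 0.0157), Myh11 (-0.35, adjusted P = 0.00165) and Myocd (-0.82, adjusted P = 8.61e-07). Myocd was at 0.03, -0.15, -0.11 and -0.08 in 21% O2 and at -0.84, -0.83, -1.03 and -0.91 in 85% O2. The groups of all 4 genes were apart, and Myocd was 1.77-fold lower. Of the 10 members 6 had groups apart, beside 42% of all probes. The Acta2 call was the least firm, since it was kept in 4 of 9 alternatives and in 4 of 8 fits that left out 1 mouse. The Actg2 call was kept in 8 of 9 alternatives.

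At P14, 4 of 10 members were higher in the A34a mice (27.8% of all probes were) and 0 were lower: Acta2 (0.91, adjusted P = 9.91e-05), Actg2 (1.13, adjusted P = 0.00025), Tagln (0.77, adjusted P = 0.000308) and Cnn1 (0.73, adjusted P = 0.0155). The Cnn1 call held in 5 of 9 alternatives, and its adjusted P was 0.062 with quantile normalization and with the authors' values and 0.0677 in the fit of the 2 groups alone. Acta2 was at 5.49, 5.47, 5.69 and 5.54 in 21% O2 and at 6.19, 6.76, 6.10 and 6.80 in 85% O2. Actg2 was at 3.50, 3.53, 3.67 and 3.64 in 21% O2 and at 4.33, 5.09, 4.12 and 5.32 in 85% O2. The groups of both were apart, but the hyperoxic mice were uneven, with mice 2 and 4 high and mice 1 and 3 lower. Of the 10 members 3 had groups apart, beside 58.9% of all probes. Cnn1 overlapped: it was at 3.99, 4.02, 3.88 and 4.11 in 21% O2 and at 4.31, 4.95, 4.06 and 5.59 in 85% O2. Under the methods' t-test 2 genes were called, Acta2 and Tagln. In the same comparison 3 of 8 heart and 4 of 8 skeletal muscle markers were lower in 85% O2, with medians of -1.21 and -1.51. Their part in the contractile effects was not tested.

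Direct comparison of A34a with SCR at the same age and oxygen level gave no called member. The count was 0 of 10 in 85% O2 at P5 (0.0639% of all probes were called), 0 of 10 in 85% O2 at P14 (2.66%), 0 of 10 in 21% O2 at P5 (0.136%) and 0 of 10 in 21% O2 at P14 (0%, with 4052 probes at an unadjusted P under 0.05). At an unadjusted P under 0.05 there were 2, 1, 0 and 0 members in that order, beside 13%, 16.7%, 17.4% and 10.5% of all probes, and the methods' t-test also called 0 in each. Without mouse 4 of P5 21% O2 SCR the count in 21% O2 at P5 was 0 as well. The lowest adjusted P values by limma were 0.191, 0.205, 0.297 and 0.686.

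The comparison in 21% O2 at P14 rested on SCR mouse 4 and A34a mouse 1, which lay with the other group. Without SCR mouse 4, 1172 of all probes were called (2.98%), and without A34a mouse 1, 35 were. Without both, a fit chosen after seeing the data, 6729 of 40085 probes were called (16.8%) in place of 0. The count of members stayed at 0 in each of these fits, and without both mice 0 members had an unadjusted P under 0.05, beside 26.2% of all probes. Why these mice lay with the other group was not tested.

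Lmod1 in 85% O2 at P5 showed the largest of these differences, with -5.05, -5.36, -5.92 and -5.14 in SCR and -3.70, -4.66, -4.81 and -4.83 in A34a mice. The groups did not overlap and A34a mouse 1 stood far above the others; the effect was 0.86 (95% interval 0.34 to 1.39, adjusted P = 0.191), and 0.44 with normexp background correction. Myocd in the same comparison was at -0.57, -0.80, -0.71 and -0.82 in SCR and at -0.84, -0.83, -1.03 and -0.91 in A34a mice. Its groups were apart by a narrow margin, with an effect of -0.18 (95% interval -0.33 to -0.02, adjusted P = 0.335). These 2 were the members whose groups did not overlap there, beside 5.6% of all probes. In 21% O2 at P14 the groups of 2 members did not overlap, beside 5.26% of all probes, both lower in A34a mice: Actg2, at 3.69 to 3.82 in SCR and 3.50 to 3.67 in A34a mice (-0.18, adjusted P = 0.807), and Cnn1, at 4.24 to 4.39 in SCR and 3.88 to 4.11 in A34a mice (-0.30, adjusted P = 0.686). In 85% O2 at P14 the member with the lowest adjusted P was Mylk, at -0.23 (95% interval -0.43 to -0.04, adjusted P = 0.205).

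The width of the intervals differed between members and ages. In 85% O2 at P5 the 95% interval reached from -0.11 to 0.23 for Acta2, from -0.16 to 0.16 for Myh11 and from -0.05 to 0.27 for Tagln. The P14 intervals were wider, -0.45 to 0.18 for Acta2, -0.29 to 0.23 for Myh11 and -0.33 to 0.27 for Tagln. Over all 10 members the intervals lay between -0.51 (Cnn1) and 1.39 (Lmod1) at P5 and between -0.59 (Lmod1) and 0.67 (Cnn1) at P14.

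Whether the antimiR effect differed between oxygen levels was tested as an interaction. It was called for 0 of 10 members at P5 (0.0556% of all probes) and for 0 of 10 at P14 (0.0884%), by limma. Without both of the 21% O2 mice that lay with the other group, 17% of all probes were called at P14 and still 0 members, of which 1 had an unadjusted P under 0.05. At P5 Lmod1 was at 0.73 (adjusted P = 0.468), but at 0.20 with normexp background correction, and Des was at 0.45 (adjusted P = 0.571). At P14 Cnn1 was at 0.45 (adjusted P = 0.533).

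**Figure D3:**
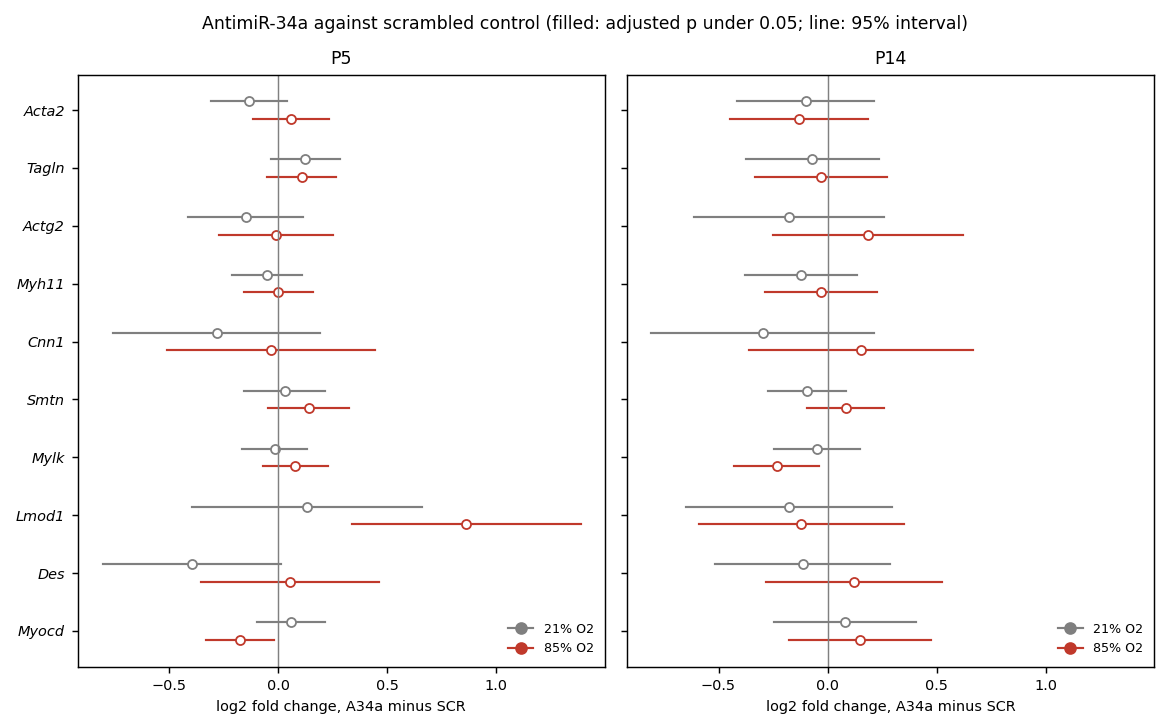
Effect of antimiR-34a against the scrambled antimiR on each contractile gene (x axis, difference of group means on the log2 scale) at P5 and P14, in 21% O2 (grey) and 85% O2 (red). Points are estimates and lines 95% intervals; no point reached an adjusted P below 0.05, and Lmod1 in 85% O2 at P5 lies farthest from 0.

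Age was compared within each oxygen level in SCR mice. In normoxia 4 of 10 genes were lower at P14 than at P5 and 1 was higher, where 23.5% of all probes were lower and 27.8% higher. The actins and the myosin fell together: Acta2 by 0.44 (adjusted P = 0.00343), Actg2 by 0.94 (adjusted P = 6.53e-05) and Myh11 by 0.64 (adjusted P = 7.19e-06). Myocd fell by 0.65 (adjusted P = 7.07e-05), from a mean of -0.14 ± 0.09 (SD, n = 4) to -0.79 ± 0.14 (SD, n = 4). Des rose by 0.89 (adjusted P = 0.0005), and all 5 of these genes had groups without overlap. Of the 10 members 6 had groups apart, beside 49.1% of all probes. The same 5 were called without mouse 4 of P5 21% O2 SCR.

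In 85% O2 the order was different. From P5 to P14, 6 members rose and 0 fell, where 26% of all probes were higher and 16.2% lower. Des rose by 1.02 (adjusted P = 0.000146), Cnn1 by 0.94 (adjusted P = 0.00247), Acta2 by 0.93 (adjusted P = 9.13e-07), Lmod1 by 0.78 (adjusted P = 0.0113), Tagln by 0.65 (adjusted P = 4.93e-05) and Mylk by 0.25 (adjusted P = 0.0126). With quantile normalization and with the authors' values 4 were called, Lmod1 and Mylk being lost and Tagln falling to 0.37, and with normexp background correction Lmod1 was at 0.44 and Smtn was called lower as well (-0.27, adjusted P = 0.0263). Myh11 (-0.15, adjusted P = 0.221) and Myocd (-0.13, adjusted P = 0.393) were not called. The median of the 10 genes was -0.21 with age in normoxia and 0.51 in hyperoxia, beside 0.04 and 0.09 over all probes.

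Placed in order over all 8 groups, the genes fell into different patterns. Acta2 and Tagln had their highest mean at P14 in 85% O2 SCR and the next at P14 in 85% O2 A34a, and their lowest at P14 in 21% O2 A34a. The neighbours at the top and at the bottom of that order overlapped. Myh11 and Myocd were highest in both P5 21% O2 groups, and those groups did not overlap with the next one down. Des was highest in the 4 P14 groups, whatever the oxygen level, with overlap from each to the next. Mylk and Smtn had the narrowest span of group means, 1.71 to 1.95 for Mylk and 3.91 to 4.26 for Smtn, and each Smtn group overlapped with the next in order.

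The promoter window of Acta2 is shown because CArG boxes are the sequences that SRF binds in contractile genes. RefSeq windows of 300 bases, 250 before to 50 after a gene start in GRCm38.p6, were at hand for 6 of the 10 members: Acta2, Cnn1, Des, Lmod1, Smtn and Mylk. An exact CArG box (CC, then 6 bases that are A or T, then GG, read on both strands) was in 0 of the 6 and in 1.63% of all 32851 windows. A looser form with 1 of the 6 core bases free to be G or C, chosen after the exact search, was in 9.98% of all windows and in 1 of the 6. This was Acta2, with 2 boxes, as in 0.82% of all windows with 2 or more. They begin 84 and 34 bases before the start and are in capitals within 10 bases on either side, at chr19:34255438-34255467 and chr19:34255388-34255417 on the minus strand. A match describes the letters in the window and is not evidence of binding.
Acta2 box at 84: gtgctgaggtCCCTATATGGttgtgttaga
Acta2 box at 34: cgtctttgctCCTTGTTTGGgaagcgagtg

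SRF and its partners were followed as a list of 10 regulators. In SCR mice 4 were higher and 0 lower in 85% O2 at P5, with a median of 0.17, where 17.5% of all probes were higher and 26.4% lower. At P14, 4 were higher and 2 lower, with a median of 0.24, beside 28.4% and 32.4% of all probes. The counts at P5 depended on the fit: over all alternatives 1 to 5 were higher and 0 to 1 lower, with a median of 0.03 to 0.20. Without mouse 4 of P5 21% O2 SCR 1 was higher and 1 lower, without mouse 1 of that group 2 were higher, and without mouse 1 of P5 85% O2 SCR 1 was. At P14 the alternatives gave 3 to 5 higher and 1 to 2 lower, with a median of 0.04 to 0.29. At P5 the called ones were Klf4 (0.51), a factor that represses contractile genes in smooth muscle, Foxf1 (0.34), Tead1 (0.27) and Mkl1 (0.18), a myocardin-related coactivator. At P14 Tead1 (1.03, adjusted P = 4.01e-07), Klf4 (0.71, adjusted P = 0.000491) and Srf itself (0.60, adjusted P = 1.86e-05) were higher, and Mef2c was lower (-0.62, adjusted P = 0.000144). The A34a mice differed at P5, with 1 regulator higher and 2 lower in 85% O2 (median -0.07), beside 17.2% and 29.5% of all probes. At P14 they had 3 higher and 2 lower (median 0.004), beside 27.8% and 37.8%.

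Another 24 genes of the contractile apparatus and its control, none of them members, gave a mixed picture. In 85% O2 at P5, 2 were higher and 8 lower (median -0.10), beside 17.5% and 26.4% of all probes, and without mouse 4 of P5 21% O2 SCR 1 was higher and 8 were lower. At P14, 11 were higher and 7 lower (median 0.21), beside 28.4% and 32.4% of all probes, but 9 were higher and 8 lower with quantile normalization (median 0.10) and with the authors' values (median 0.097). The largest called effects at P5 were in Synpo2 (-1.23) and Pdlim3 (-0.80), which encode actin-associated proteins, Kcnmb1 (-0.74), a subunit of a smooth muscle potassium channel, and Sspn (-0.59), a membrane protein of muscle. Among the genes called at P14 Synpo2 was again lower (-1.17) and Itga8, an integrin of smooth muscle and myofibroblasts, was lower (-0.83). The most negative effect of the list at P14 was not called: Pln, the phospholamban of muscle, at -1.99 (adjusted P = 0.0971), which is named after its value was seen. Rock2 (0.84) and Ppp1r12a (0.73), a kinase and a phosphatase subunit that set light-chain phosphorylation, were higher. The oxygen effect differed between ages for 15 of the 24, 11 upward and 4 downward, beside 23% and 17.9% of all probes.

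Markers of alveolar myofibroblasts, a cell that also makes Acta2, were lower at both ages. At P5, 8 of the 10 were lower in 85% O2 and 0 higher (median -0.51), and 9 were lower without mouse 4 of P5 21% O2 SCR (median -0.46), where 26.4% of all probes were lower. They were led by Pdgfra (-1.26, adjusted P = 1.24e-08), the receptor that defines the lineage, Wnt5a (-0.79), Mustn1 (-0.66) and Lgr6 (-0.60). At P14, 8 were lower and 1 higher (median -0.85), where 32.4% of all probes were lower, with Pdgfra at -2.46 (adjusted P = 6.25e-06), Mustn1 at -1.68, Enpp2 at -1.47 and Eln, the elastin gene, at -1.20. Acta2 and Pdgfra were thus both lower at P5, while at P14 Acta2 was higher and Pdgfra lower. Of 8 pericyte markers, 1 was higher and 2 were lower at P5, with and without that mouse. At P14, 1 was higher, Cspg4 at 1.14, and 4 were lower, with Kcnj8 at -1.12. In A34a mice 8 of the 10 myofibroblast markers were lower and 0 higher in 85% O2 at P5 (median -0.55), where 29.5% of all probes were lower. At P14, 8 were lower and 1 higher in these mice (median -0.96), where 37.8% of all probes were lower. The part of any of these cell types in the contractile results was not tested.

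**Figure D4:**
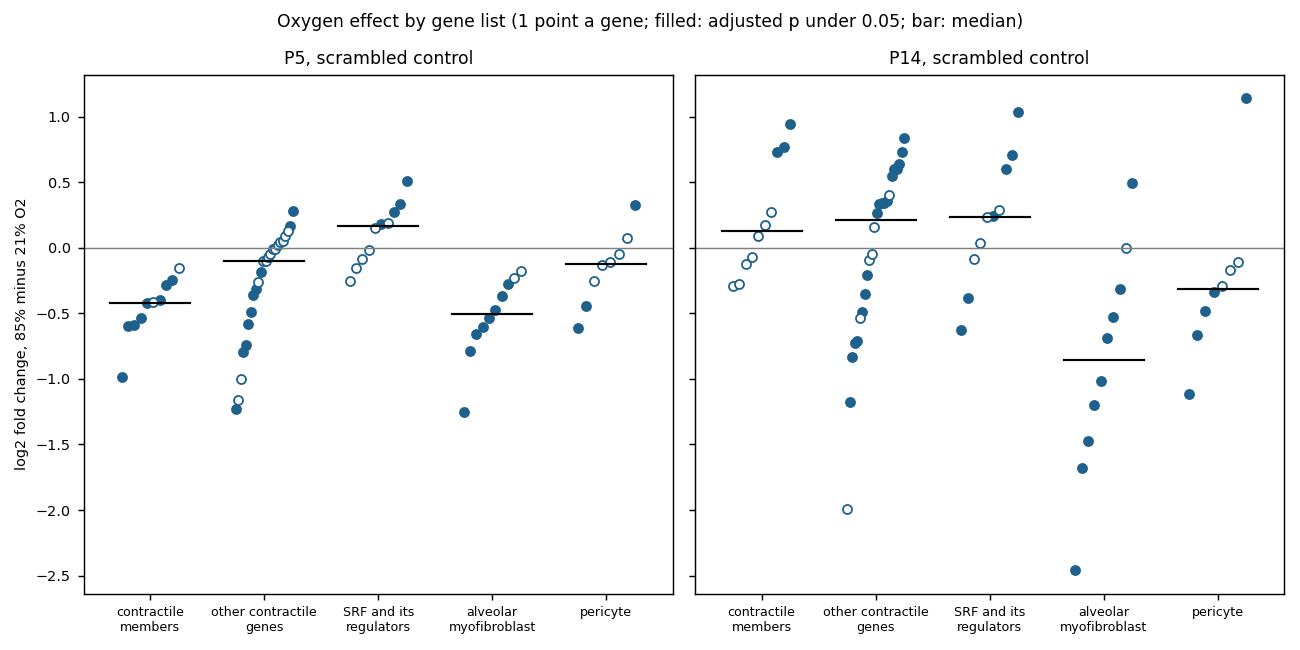
Oxygen effect in SCR mice (y axis, difference of group means on the log2 scale) at P5 and P14 for each gene of 5 lists: the 10 contractile genes, 24 other contractile genes, 10 SRF regulators, 10 alveolar myofibroblast markers and 8 pericyte markers. Points are genes, filled where the adjusted P is below 0.05, and bars are medians; the contractile genes are all below 0 at P5 and on both sides of 0 at P14, whereas the alveolar myofibroblast markers lie below 0 at both ages with 1 exception at P14.

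Mice of 1 group differed most in the P14 85% O2 A34a group. There the median SD of the 10 contractile genes was 0.368 (n = 4), beside 0.202 over all probes of the group, and 9 of the 10 members exceeded that value. In the other 7 groups the members' median SD lay between 0.0711 and 0.149. This group held the highest SD of all 8 groups for 8 of the members. Mouse 4 was the highest for 8 of the 10 genes and mouse 3 the lowest for 9. Cnn1 showed this most, from 4.06 in mouse 3 to 5.59 in mouse 4. The heart markers summed to 24.7, 43.9, 49.2 and 120 in mice 1 to 4, highest in mouse 4 but not lowest in mouse 3, and their part in this spread was not tested.

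**Figure D5:**
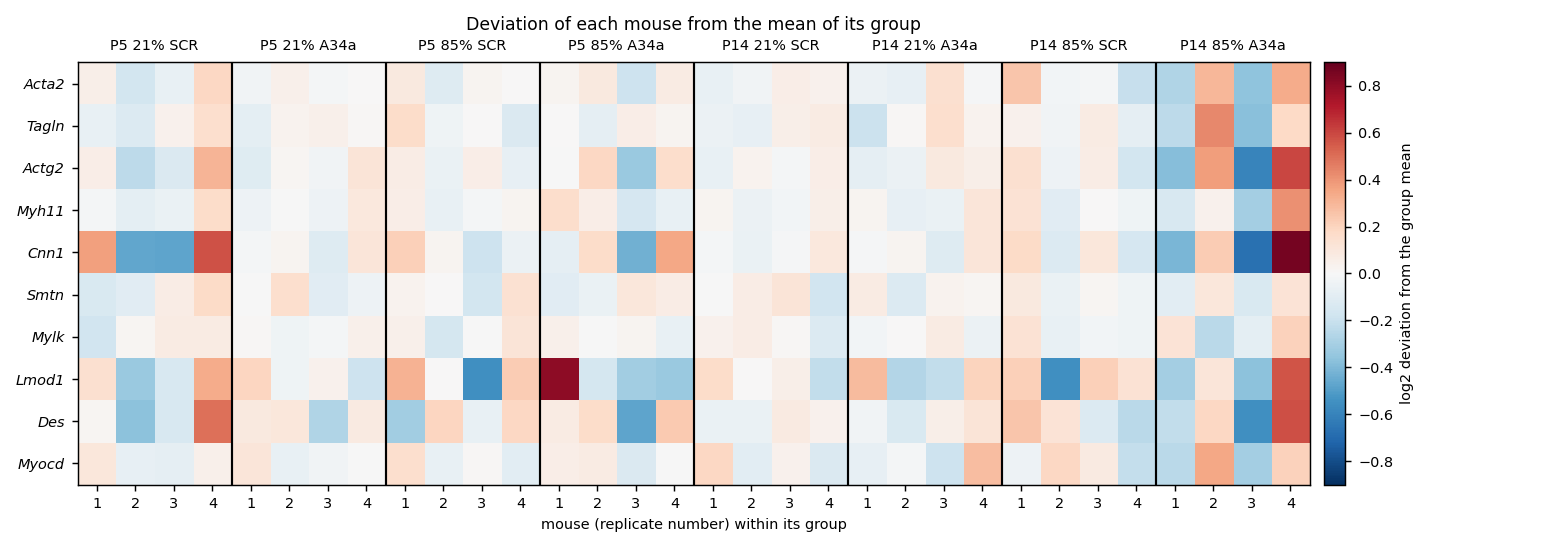
Deviation of each mouse from its group mean (colour, log2 scale) for the 10 contractile genes (rows) in all 32 mice (columns, by group). Most columns are pale, and in P14 85% O2 A34a mouse 3 is negative and mouse 4 positive for all 10 genes; mouse 4 of P5 21% O2 SCR is positive for all 10 too.

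After subtraction of the group means, some members varied together over the 32 arrays. The highest Pearson r was between Acta2 and Actg2 (0.934), followed by Cnn1 and Actg2 (0.896) and Myh11 and Actg2 (0.831), and the lowest was between Mylk and Myocd (-0.180). Among 17311 genes compared, and leaving out the 10 members themselves, those most like Acta2 were Tpm2 (r = 0.908), a tropomyosin, Ncs1 (0.806), Synpo (0.801), Myl9 (0.798), the regulatory myosin light chain, and Adamts2 (0.785). Those most like Myh11 were Myl9 (0.766), Tpm2 (0.755), Nov (0.741), Ncs1 (0.712) and Kank1 (0.711). Those most like Myocd were Fhl2 (0.790), Vwa1 (0.767), Fam49b (0.741), Pthlh (0.733) and Anxa8 (0.726). The points share arrays and their muscle content, and the values are descriptions. For 8 of the 10 members the SD was highest in P14 85% O2 A34a, so the 4 mice of that group weigh most in their deviations.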

How the data were processed

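Lung RNA of 32 mice, 1 per array and 4 in each of 8 groups taken from the sample labels, was measured on one-colour arrays. Per the file headers, the deposited intensity of a spot is its brightness after background subtraction by Agilent Feature Extraction 10.7.3.1, with no scaling between arrays and with probe positions in mm9. The authors also deposited a table of log2 values with the same distribution in every column (column medians 6.004 to 6.006, correlation with the scanner values at least 0.9974). Its centring and scale are not stated, and it was used as an alternative.

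Outlier-marked spots were dropped, control spots removed, spots of a probe averaged, and log2 values taken relative to the array's 75th percentile. A probe entered the test if the scanner software had marked it well above background in every mouse of 1 or more of the groups fitted. The test was limma 3.58.1 (lmFit, eBayes) in R 4.3.3, fitting the group means of 1 age (16 arrays) or of both (32 arrays), with Benjamini-Hochberg adjustment at 0.05. The methods named a Welch t-test with the same adjustment, which was run as an alternative. The scripts were tested on simulated data. Tables and figures were made with pandas 2.3.3 and matplotlib 3.10.9.

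The 10 genes and the lists of other genes were chosen with earlier results of these data known. All members are named. Of other genes, those on the lists are named where they were among at most 4 called with the largest effects, and 5 genes are named as most like each of Acta2, Myh11 and Myocd. The cartilage list is given here only: 4 of 8 genes were tested at P5 and 5 at P14, with 1 lower at P5 (1 to 3 over the alternatives, 3 without mouse 3 of P5 21% O2 SCR and 2 without mouse 1 of P5 85% O2 SCR or with the block) and 2 lower at P14 in hyperoxia (1 to 3). Among 8 epithelial markers, 3 were higher in hyperoxia at P5 and 1 was lower, and at P14 the counts were 4 and 2. Sequences came from RefSeq (GRCm38.p6) and were not aligned to the mm9 positions.

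The number of arrays limits the precision. Between 33606 and 40774 probes per array were above background, the 75th percentile lay between 9.20 and 10.20 (log2), and no spot was saturated on any array (0). Other alternatives were normexp background correction (offset 50), quantile normalization, other filters on dim probes, a fit of the compared groups alone, the replicate number as a block, averaging the probes of a gene, leaving out each mouse, and leaving out 2 mice of P14 in 21% O2 together. The labels and the methods name different RNA kits.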

Additional observations from a re-analysis of the deposited data

Results flagged for a closer look

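In 3 of 96 groups of 4 values of a member probe, 1 mouse stood apart, with a gap to its nearest neighbour that took up more of the group's range than Dixon's 95% critical value of 0.829. Chance gives about 1 in 20. Des in P5 21% O2 A34a had mouse 3 lowest (0.932 of the range). Lmod1 had mouse 1 highest in P5 85% O2 A34a (0.850) and mouse 2 lowest in P14 85% O2 SCR (0.885).

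The same was found in 6 of 64 groups of the summed list levels. Skeletal muscle markers were highest in mouse 4 of P5 21% O2 SCR (0.987) and mouse 1 of P14 21% O2 SCR (0.895). SRF regulators and lung epithelium markers were highest in mouse 4 of P14 21% O2 SCR (0.865 and 0.829) and lowest in mouse 1 of P14 21% O2 A34a (0.914 and 0.867). Those 2 arrays were also the dimmest and the brightest of their groups, with a 75th percentile of 9.34 and 10.20 on the log2 scale, and each lay with the mice of the other antimiR group in these values.

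The oxygen effect in SCR mice differed between P5 and P14 for 7 contractile genes, by the test of the difference in limma, with more positive effects at P14. The differences on the log2 scale were 1.37 for Acta2, 1.30 for Actg2, 0.88 for Tagln, 0.87 for Cnn1, 0.52 for Myocd, 0.49 for Myh11 and 0.42 for Mylk. Age and slide cannot be told apart here.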

How the results depend on the processing

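No called member changed sign in any alternative. Of 2420 values of a single member under an alternative, 2244 stayed on the same side of the threshold, 53 lost a call, 26 gained one, and 97 were uncalled values that changed sign. Counts of called members that moved by more than 1.5 times were 3: the methods' t-test gave 4 in place of 8 for oxygen in SCR mice at P5 and 2 in place of 4 for oxygen in A34a mice at P14, and averaging the probes of a gene gave 5 in place of 3 for oxygen in SCR mice at P14 (Smtn lower and Mylk higher were added). Leaving out 1 mouse gave 6 to 9 of 10 for oxygen in SCR mice at P5, 3 in every case at P14, 3 to 5 and 4 to 5 in A34a mice, 5 to 7 for age in normoxia, 5 to 6 for age in hyperoxia and 6 to 8 for the difference of oxygen effects between ages. It gave 0 in all antimiR comparisons. Leaving out both mice of P14 in 21% O2 that lay with the other group, chosen after seeing the data, kept the count of members in 5 of the 6 comparisons that use these groups and gave 6 in place of 7 for the age difference. Cnn1 was the least stable: its adjusted P for the age difference by limma ranged up to 0.0902 in the alternatives that kept all mice. It ranged up to 0.105 with 1 mouse left out.

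With the replicate number as a replicate block, all 130 member calls stayed as they were (for Cnn1 at P5, an adjusted P of 0.0199 in place of 0.0410). Same-numbered mice deviated together, with a correlation over 0.1, in 10 of 48 pairs (-0.355 to 0.50), so the numbers do not pair the mice. Slide as a fixed or random block was not run, since each slide holds 1 age and 1 oxygen level. Scaling moved the median of all probes by over 0.1 in some comparisons: by 0.177 (SCR) and 0.137 (A34a) with normexp for oxygen at P14, and by 0.196 for oxygen in A34a mice at P14 with quantile normalization. The number of all probes called in antimiR comparisons depended on the settings: for 85% O2 at P14 it was 1024, but 324 with normexp, 577 with quantile normalization, 580 with the authors' values, 495 with no filter, 74 in the fit of the 2 groups alone and 0 with the methods' t-test. For 85% O2 at P5 it was 23, but 44 with normexp, 4283 with no filter, 15 with probes averaged, 2 with the block, and 0 in the fit of the 2 groups alone and with the methods' t-test. For 21% O2 at P5 it was 49, but 116 with normexp, 88 with quantile normalization, 78 with the authors' values, 19 with no filter, 31 with probes averaged, 7 with the block, 396 in the fit of the 2 groups alone and 1 with the methods' t-test, and for 21% O2 at P14 it was 0, but 2 with no filter, 1172 without SCR mouse 4, 35 without A34a mouse 1 and 6729 without both. The interaction with oxygen at P5 called 20, but 31 with the strictest filter and 4 with the block. At P14 it called 34, but 62 with the strictest filter and 0 to 5 with normexp, quantile normalization, the authors' values, no filter or the block. For age in 85% O2 the methods' t-test called 10789 in place of 16535.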
